A study of Mus musculus with 8 samples.

Results

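The 33 genes described here encode the enzymes that make cholesterol, the proteins that sense sterol levels and the proteins that carry or break down cholesterol. They were taken by symbol from a list written for this work, which places them in order along the pathway, and all 33 were found among the 55032 genes of the deposited table. Membership rests on the place of a gene in the pathway. RNA of the striatum, a forebrain region with white matter tracts running through it, was sequenced from 4 WT and 4 16p11.2+/- female mice of the C57BL/6 strain at P60 (postnatal day 60). The 16p11.2+/- mice carry 1 copy, in place of a pair, of the segment of chromosome 7 that corresponds to human 16p11.2, in every cell of the body, and the WT controls carry no engineered allele. Each mouse gave 1 library. The WT mice are called WT-1015, WT-1041, WT-1061 and WT-1063, and the 16p11.2+/- mice DF-1018, DF-1037, DF-1059 and DF-1062.

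Cholesterol is built from acetyl units through mevalonate, farnesyl diphosphate, squalene and lanosterol. The brain makes its own cholesterol because the blood-brain barrier holds back lipoproteins, and most of it lies in myelin, the membrane that oligodendrocytes wrap around axons. When sterols in the endoplasmic reticulum are low, SCAP escorts SREBP to the Golgi, where SREBP is cut and then switches on the genes of synthesis. INSIG proteins hold SCAP back when sterols are plentiful, and LXR receptors, which oxidised sterols bind, switch on genes of cholesterol export. Neurons remove cholesterol by hydroxylating it, and lysosomes return cholesterol taken up in lipoproteins to the cell.

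The libraries held 15125051 to 16523429 counts on genes, and 18294 genes passed the expression filter and entered the quasi-likelihood fit of edgeR. The genotype labels were examined on chromosome 7, where 17 of the 20 genes with an adjusted p under 0.05 were lower in 16p11.2+/- striatum and lay between 126695401 and 127208468 (GENCODE M21, GRCm38). Of the 33 cholesterol genes, 3 lie on chromosome 7 (Dhcr7, Nr1h2 and Apoe) and 0 lie between these positions. Within a genotype no pair of libraries agreed within sampling noise, since the chi-square per degree of freedom was 8.81 to 62.7. DF-1037 and DF-1062 stood apart from the other 6 mice in the genes of medium spiny neurons, the main neurons of the striatum. Averaged over 10 such genes, log2 CPM (counts per library size, after TMM scaling) was 6.75 in DF-1037 and 6.31 in DF-1062, against 8.06 to 8.83 in the others, and results are therefore also given without these 2 mice.

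All 33 cholesterol genes passed the expression filter. With edgeR, 0 of the 33 had an adjusted p under 0.05, against 0.109% of all genes tested, and the lowest adjusted p was 0.859. DESeq2 and limma-voom also gave 0 genes past this threshold. At an unadjusted p under 0.05 edgeR gave 2 genes, Lrp1 with a higher level and Npc1 with a lower level in 16p11.2+/- striatum, which compares with 4.32% of all genes tested. These 2 were also the genes whose FPKM did not overlap between genotypes, which held for 2.83% of all genes tested. A negative log2 fold change (lower in 16p11.2+/- mice) was found for 17 of the 33 genes, against 51.8% of all genes tested, and with library totals in place of TMM factors for 12. For these cholesterol genes the median log2 fold change was -0.00048, and over all genes tested it was -0.01. The fold changes below are from the edgeR fit on counts, and the FPKM (fragments scaled to gene length and to the total count) are those deposited for each mouse.

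**Figure D1:**
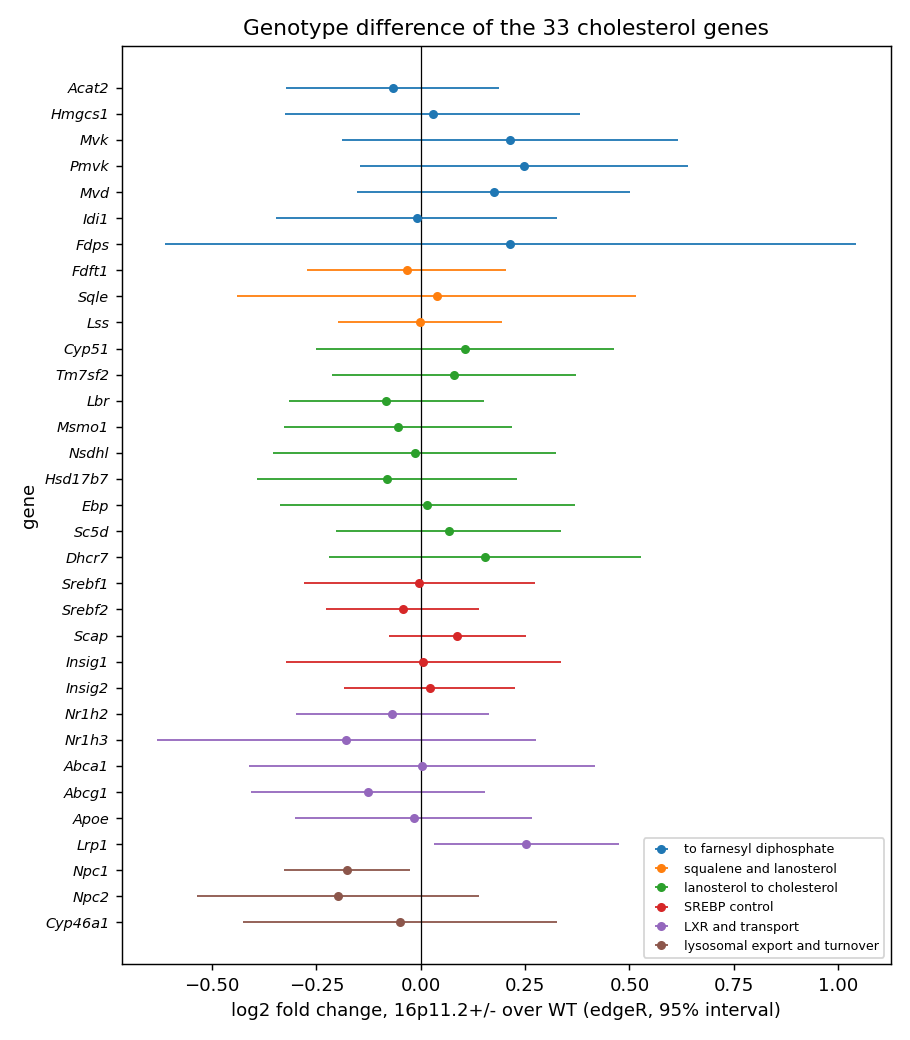
Log2 fold change of the 33 cholesterol genes in 16p11.2+/- over WT striatum (horizontal axis, log2 units, from edgeR; bars are 95% intervals; 4 mice per genotype), with genes on the vertical axis in pathway order and coloured by group. The intervals of Lrp1 (0.03 to 0.47) and Npc1 (-0.33 to -0.03) do not reach 0, and those of the other 31 genes do.

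Upstream sequences of genes that SREBP controls often hold a sterol regulatory element beside sites of the factors NF-Y (CCAAT) and Sp1 (GGGCGG). The 250 bases before the RefSeq start were available for 28 of the 33 genes, in 39 windows, since some genes have more than 1 start. In all 32851 windows of this length the letters TCACNCCAC, a form of the sterol regulatory element, were found on either strand in 1.05%. Of the 28 genes only Hmgcs1 had them. Fdps, Fdft1, Sqle, Abcg1 and Npc1 had no window and were not searched. CCAAT was found in 33.8% of all windows and in 15 of the 19 windows of synthesis enzymes, and GGGCGG in 32.7% of all windows and in 16 of these 19. No matches of different motifs overlapped in the 39 windows. Windows of 2 early enzymes (Hmgcs1 and Mvd), of the late enzyme Sc5d and of Lrp1, the cholesterol gene with the largest difference between genotypes, are given 5′ to 3′ on the strand of the gene (GRCm38.p6, RefSeq), with TCACNCCAC and CCAAT on either strand in capitals. They lie at chr13:119690101-119690350 on the plus strand for Hmgcs1, at chr8:122443423-122443672 on the minus strand for Mvd, at chr9:42264301-42264550 on the minus strand for Sc5d and at chr10:127621149-127621398 on the minus strand for Lrp1, and none overlaps an exon of GENCODE M21.
Hmgcs1: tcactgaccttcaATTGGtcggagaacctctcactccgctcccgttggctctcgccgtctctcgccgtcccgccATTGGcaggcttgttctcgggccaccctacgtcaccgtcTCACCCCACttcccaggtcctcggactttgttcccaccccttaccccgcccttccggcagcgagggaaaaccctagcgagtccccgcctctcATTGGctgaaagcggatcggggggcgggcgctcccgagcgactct
Mvd: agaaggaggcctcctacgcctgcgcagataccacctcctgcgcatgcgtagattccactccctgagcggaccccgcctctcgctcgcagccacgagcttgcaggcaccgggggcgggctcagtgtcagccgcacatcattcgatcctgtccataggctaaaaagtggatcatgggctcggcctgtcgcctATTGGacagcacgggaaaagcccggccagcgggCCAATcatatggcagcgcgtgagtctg
Sc5d: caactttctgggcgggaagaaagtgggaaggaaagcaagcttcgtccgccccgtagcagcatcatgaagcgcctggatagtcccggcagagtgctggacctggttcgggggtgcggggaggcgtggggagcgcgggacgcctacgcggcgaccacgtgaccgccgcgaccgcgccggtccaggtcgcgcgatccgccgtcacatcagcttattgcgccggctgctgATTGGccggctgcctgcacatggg
Lrp1: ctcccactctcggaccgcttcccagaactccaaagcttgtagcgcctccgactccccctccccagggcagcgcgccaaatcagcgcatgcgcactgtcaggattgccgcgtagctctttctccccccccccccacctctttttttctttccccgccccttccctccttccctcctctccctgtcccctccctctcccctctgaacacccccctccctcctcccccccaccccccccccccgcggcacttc
Hmgcs1 holds 1 sterol regulatory element and 3 CCAAT, Mvd 2 CCAAT, Sc5d 1 CCAAT and Lrp1 none of either. These matches describe letters and were not tested for binding.

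The first 7 enzymes lead from acetyl units to farnesyl diphosphate, and none of them differed between genotypes beyond the spread between mice (the lowest edgeR adjusted p was 0.859). Hmgcs1 (ENSMUSG00000093930, chromosome 13, 119690379 to 119708260), which joins acetyl units into HMG-CoA, had the highest level of these enzymes. Its FPKM was 47.3, 43.8, 46.0 and 46.4 in WT-1015, WT-1041, WT-1061 and WT-1063. In DF-1018, DF-1037, DF-1059 and DF-1062 it was 32.6, 57.8, 43.7 and 56.7. The WT mice lay close together, and the 16p11.2+/- mice lay on both sides of them. The log2 fold change was 0.03 (standard error 0.16, 95% interval -0.33 to 0.38), with an edgeR adjusted p of 0.970.

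Pmvk (ENSMUSG00000027952, chromosome 3, 89454541 to 89469013), the kinase that adds a phosphate to phosphomevalonate, had the largest fold change of the group. Its FPKM was 11.3, 13.6, 10.97 and 15.2 in the 4 WT mice in the order above, and 12.4, 18.2, 11.9 and 19.3 in the 4 16p11.2+/- mice. DF-1037 and DF-1062 were above every WT mouse and the other pair of 16p11.2+/- mice was within the WT range. The log2 fold change was 0.25 (standard error 0.17, 95% interval -0.15 to 0.64, edgeR adjusted p = 0.859). Without the 2 mice lowest in medium spiny neuron genes it was -0.06.

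Mevalonate kinase Mvk and the decarboxylase Mvd, which act just before and just after Pmvk, had log2 fold changes of 0.21 (standard error 0.18) and 0.17 (standard error 0.14). Mvk ranged from 3.99 to 4.62 FPKM in WT and from 3.26 to 6.04 in 16p11.2+/- mice, and Mvd from 4.21 to 5.25 and from 4.34 to 6.34. Acat2, the thiolase that joins a pair of acetyl-CoA, and Idi1, which isomerises isopentenyl diphosphate, had log2 fold changes of -0.07 (standard error 0.11) and -0.01 (standard error 0.15). Acat2 shares 30.6% of its 100-base stretches with Acat3 and Idi1 shares 24.7% with other genes, so that their counts are uncertain where reads were divided. Fdps, the farnesyl diphosphate synthase, was listed at only 0.187 to 0.604 FPKM (12 to 42 counts), and 54.1% of its 100-base stretches are shared with other genes, so its level in this tissue cannot be read from these counts.

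Fdft1, Sqle and Lss lead from farnesyl diphosphate through squalene to lanosterol. Fdft1 (ENSMUSG00000021273, chromosome 14, 63145150 to 63179578), squalene synthase, had the highest level of the 3, and 21.5% of its 100-base stretches are shared with other genes, mainly the neighbouring Ctsb. It had 17.1, 18.99, 16.7 and 15.3 FPKM in the WT mice and 14.4, 15.1, 18.8 and 19.3 in the 16p11.2+/- mice, with a log2 fold change of -0.03 (standard error 0.11, edgeR adjusted p = 0.949). Sqle (ENSMUSG00000022351, chromosome 15, 59315077 to 59331192), squalene epoxidase, an early rate-limiting step of the sterol branch, varied most. Its FPKM was 7.05, 7.46, 7.99 and 8.19 in the WT mice and 4.91, 8.55, 6.91 and 11.9 in the 16p11.2+/- mice.

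The highest Sqle level of a 16p11.2+/- mouse was thus 2.42 times the lowest, against 1.16 times among WT mice. The mean FPKM of Sqle was 7.67 ± 0.517 (SD, n = 4 WT mice) against 8.06 ± 2.95 (SD, n = 4 16p11.2+/- mice), and the log2 fold change was 0.04 (standard error 0.21, 95% interval -0.44 to 0.52, edgeR adjusted p = 0.969). Lss, which closes squalene epoxide into lanosterol, had 3.77 ± 0.146 FPKM (SD, n = 4 WT mice) against 3.84 ± 0.492 (SD, n = 4 16p11.2+/- mice).

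The 9 enzymes that turn lanosterol into cholesterol had log2 fold changes between -0.08 and 0.15, 4 of them negative and 5 positive, with a median of 0.02. Sc5d (ENSMUSG00000032018, chromosome 9, 42251595 to 42264256), which puts in the C5 double bond of the sterol ring, had the highest level, at 16.6, 16.2, 15.8 and 16.8 FPKM in the WT mice and 12.9, 18.9, 17.2 and 20.8 in the 16p11.2+/- mice. Its log2 fold change was 0.07 (standard error 0.12, edgeR adjusted p = 0.916). Dhcr7 (ENSMUSG00000058454, chromosome 7, 143823145 to 143848410), which carries out the last step of the Kandutsch-Russell branch, had 3.92, 4.01, 3.94 and 4.605 FPKM in the WT mice and 3.23, 4.97, 4.23 and 6.28 in the 16p11.2+/- mice. The genotypes overlapped for both genes, and DF-1018 was the lowest and DF-1062 the highest of the 8 mice in each. For Dhcr7 the log2 fold change was 0.15 (standard error 0.17, 95% interval -0.22 to 0.53, edgeR adjusted p = 0.873).

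Cyp51, which removes the C14 methyl group of lanosterol, ranged from 11.3 to 12.6 FPKM in WT and from 8.87 to 17.4 in 16p11.2+/- mice. The C4 demethylation enzymes Msmo1, Nsdhl and Hsd17b7 had log2 fold changes of -0.05, -0.01 and -0.08 (standard errors 0.12, 0.15 and 0.14). The sterol isomerase Ebp had 4.42 ± 0.563 FPKM (SD, n = 4 WT mice) against 4.56 ± 0.866 (SD, n = 4 16p11.2+/- mice). Tm7sf2 and Lbr, both C14 sterol reductases, were the enzymes of this group with the narrowest range among 16p11.2+/- mice, at 1.33 and 1.19 times from the lowest to the highest.

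The synthesis enzymes therefore showed no difference in mean, with a median log2 fold change of 0.03 over the 19 genes, but their levels moved together from one 16p11.2+/- mouse to another. DF-1018 was below every WT mouse in 15 of the 19 enzymes and above every WT mouse in 0, while over all genes tested DF-1018 was below every WT mouse in 22.5% (FPKM). The 4 enzymes in which DF-1018 reached the WT range were Pmvk, Mvd, Tm7sf2 and Ebp. Fdps, whose level cannot be read from its counts, is among the 15 and is kept in all summaries of the 19 enzymes. DF-1062 was above every WT mouse in 15 of the 19 (35.5% of all genes tested) and DF-1037 in 11 of the 19 (25.6%). DF-1062 was below every WT mouse in 0 (23.9%) and DF-1037 in 1, Fdft1 (26.6%). DF-1059 was below every WT mouse in 2 and above in 4 (15.4% and 17.9% of all genes tested). With CPM scaled by TMM factors in place of FPKM, the counts were 15 below for DF-1018 (19.1% of all genes tested) and 13 above for DF-1062 (27.1%). They were 12 above for DF-1037 (25.4%), and 2 below and 3 above for DF-1059 (16.8% and 16.4%). In CPM 1 enzyme was below every WT mouse in DF-1062, Lbr (30.7%), and 1 in DF-1037, Fdft1 (26.8%).

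On the same CPM scale the median of the 19 enzymes, relative to the WT mean of each enzyme, was -0.35 log2 units in DF-1018 and 0.15, 0.04 and 0.21 in DF-1037, DF-1059 and DF-1062. In the WT mice it lay between -0.05 and 0.08. The SD of log2 CPM was larger among 16p11.2+/- than among WT mice for 18 of the 19 enzymes, against 62.8% of all genes tested, with a median SD of 0.25 and 0.13. Over all genes tested the median SD was 0.25 in 16p11.2+/- and 0.20 in WT mice, so that the synthesis enzymes had a smaller spread than the typical gene among WT mice and a similar one among 16p11.2+/- mice. These are descriptions over 4 mice per genotype, and the difference in spread was not tested. Nor were the enzymes compared with genes of like level. The direction of the small mean difference followed from which mice were present. Without DF-1018 the median log2 fold change of the enzymes was 0.15, without DF-1062 it was -0.03, and without both DF-1037 and DF-1062 it was -0.15.

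**Figure D2:**
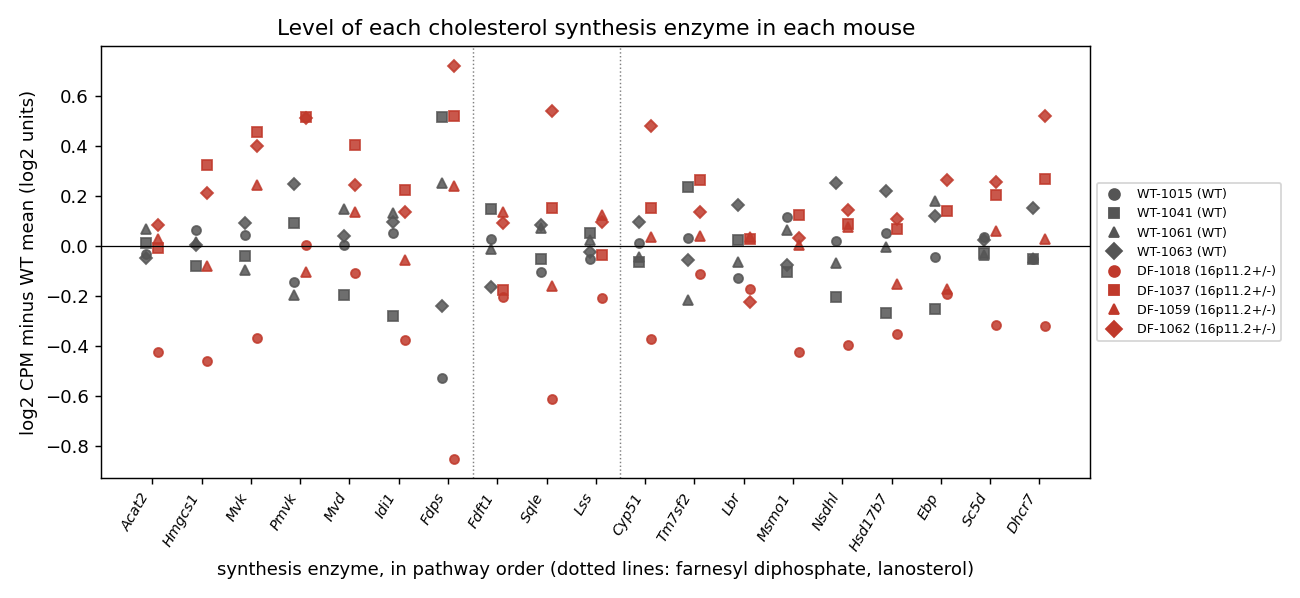
Level of each of the 19 synthesis enzymes in each mouse, as log2 CPM minus the mean of the 4 WT mice (vertical axis, log2 units), with enzymes in pathway order on the horizontal axis. Grey points are WT mice and red points 16p11.2+/- mice, and the red circles of DF-1018 lie at the bottom for most enzymes while the red squares and diamonds of DF-1037 and DF-1062 lie above the WT points for most of the first 7.

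The 5 genes of SREBP control had log2 fold changes between -0.04 and 0.09. Srebf2 (ENSMUSG00000022463, chromosome 15, 82147181 to 82205379), which encodes the SREBP form that drives sterol synthesis, had the highest level of them, at 28.4, 26.2, 27.6 and 24.3 FPKM in the WT mice and 23.5, 26.0, 26.5 and 29.1 in the 16p11.2+/- mice. In FPKM DF-1018 was the lowest and DF-1062 the highest, and the range among 16p11.2+/- mice was 1.24 times. Of the 19 synthesis enzymes DF-1018 was the lowest mouse in 15 and DF-1062 the highest in 11. With CPM scaled by TMM factors these counts were 14 and 7. On that scale WT-1015 had the highest Srebf2, 0.11 log2 units above the WT mean, against 0.04 in DF-1062. The log2 fold change was -0.04 (standard error 0.08, 95% interval -0.23 to 0.14, edgeR adjusted p = 0.919). Scap (ENSMUSG00000032485, chromosome 9, 110333288 to 110384950), the sterol sensor and escort of SREBP, had 8.08, 8.69, 8.71 and 7.89 FPKM in the WT mice and 9.16, 8.19, 9.08 and 9.56 in the 16p11.2+/- mice. Of the latter 3 were above every WT mouse and DF-1037 was within the WT range, and the log2 fold change was 0.09 (standard error 0.07, edgeR adjusted p = 0.859).

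Insig1, which retains SCAP and is itself a gene that SREBP switches on, was also lowest in DF-1018 and highest in DF-1062. It had 15.2 FPKM in DF-1018 and 26.4 in DF-1062, with 21.2 and 21.4 in DF-1037 and DF-1059, both inside the WT range of 17.8 to 24.0. Its relative Insig2, which retains SCAP in the same way, ranged from 14.4 to 18.3 in WT and from 14.6 to 17.7 in 16p11.2+/- mice, with DF-1018 at 16.7 inside the WT range. Srebf1, whose product mainly drives fatty acid synthesis, had 9.84 ± 1.81 FPKM (SD, n = 4 WT mice) against 9.97 ± 0.935 (SD, n = 4 16p11.2+/- mice), and WT-1063 at 12.5 stood above the other WT mice at 8.77 to 9.12.

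Among the genes of LXR and of transport between cells, Lrp1 (ENSMUSG00000040249, chromosome 10, 127538161 to 127621148) had the lowest unadjusted p. It encodes a large receptor on neurons and other cells that takes up APOE-containing lipoproteins and many other ligands. Its FPKM was 28.7, 27.9, 28.8 and 29.8 in the WT mice and 33.4, 29.8, 34.9 and 41.5 in the 16p11.2+/- mice. The genotypes did not overlap, although DF-1037 lay just above the highest WT mouse (29.85 against 29.78), and DF-1062 was well above the rest. The mean was 28.8 ± 0.774 (SD, n = 4 WT mice) against 34.9 ± 4.87 (SD, n = 4 16p11.2+/- mice). The exact permutation p was 0.0286, the smallest that 4 mice against 4 can give. Any gene without overlap reaches this p, so it adds nothing to the lack of overlap. The log2 fold change was 0.25 (standard error 0.10, 95% interval 0.03 to 0.47), with an edgeR adjusted p of 0.859, so the difference did not pass the correction over all genes. In edgeR fits without WT-1015, WT-1041, WT-1061 or DF-1059 the unadjusted p exceeded 0.05, with log2 fold changes of 0.26, 0.23, 0.26 and 0.26. With the oligodendrocyte marker score as a covariate the log2 fold change of Lrp1 was 0.09, and with the thalamic or the cortical neuron score it was 0.24 or 0.21, each with an unadjusted p above 0.05. In the remaining alternatives the unadjusted p was under 0.05. Without the 2 mice lowest in medium spiny neuron genes the log2 fold change was 0.25, with an unadjusted edgeR p of 0.010. That fit left only DF-1018 and DF-1059 of the 16p11.2+/- mice and was added after seeing the data.

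Apoe (ENSMUSG00000002985, chromosome 7, 19696109 to 19699188), the main apolipoprotein of brain lipoproteins, made chiefly by astrocytes, had the highest FPKM of the 33 genes. It had 374, 379, 430 and 520 FPKM in the WT mice and 403, 441, 385 and 481 in the 16p11.2+/- mice. The ranges lay over each other and the log2 fold change was -0.02 (standard error 0.13, 95% interval -0.30 to 0.27, edgeR adjusted p = 0.979). The LXR receptors Nr1h2 and Nr1h3 had log2 fold changes of -0.07 (standard error 0.10) and -0.18 (standard error 0.20), and Nr1h3 was the lower of the pair at 0.913 to 1.601 FPKM, against 9.82 to 12.7 for Nr1h2. The cholesterol exporters Abca1 and Abcg1, both LXR targets, had log2 fold changes of 0.00 (standard error 0.18) and -0.13 (standard error 0.12). Neither exporter followed the synthesis enzymes among the 16p11.2+/- mice. Abca1 was at 6.76, 4.75, 7.31 and 5.34 FPKM and Abcg1 at 23.7, 17.1, 22.4 and 19.9 in DF-1018, DF-1037, DF-1059 and DF-1062, so that DF-1037 was the lowest in both.

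Npc1 (ENSMUSG00000024413), the membrane protein that moves cholesterol out of the lysosome, had lower values in 16p11.2+/- striatum. Its FPKM was 10.02, 10.1, 10.96 and 10.3 in the WT mice and 9.41, 9.52, 8.92 and 9.34 in the 16p11.2+/- mice. Every 16p11.2+/- mouse was below every WT mouse, and the spread was small in both genotypes, at 10.4 ± 0.420 (SD, n = 4) and 9.30 ± 0.261 (SD, n = 4). The exact permutation p was 0.0286, again set by the lack of overlap. The log2 fold change was -0.18 (standard error 0.07, 95% interval -0.33 to -0.03, edgeR adjusted p = 0.859). A stretch of 5.31% of its exon sequence overlaps other genes, mainly Rmc1 on the opposite strand. In edgeR fits without WT-1061, DF-1059 or DF-1062 the unadjusted p exceeded 0.05, with log2 fold changes of -0.14, -0.15 and -0.14, and with the oligodendrocyte marker score as a covariate the value was -0.09. The unadjusted p also exceeded 0.05 with no filter on low counts, with the medium spiny neuron score as a covariate and without the 2 mice lowest in its genes, with log2 fold changes of -0.18 (no filter), -0.16 and -0.17.

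Npc2 (ENSMUSG00000021242, chromosome 12, 84754562 to 84773152), the soluble lysosomal protein that hands cholesterol to NPC1, had the largest fold change of this group, -0.20 (standard error 0.15, edgeR adjusted p = 0.859). It was at 10.4, 9.70, 11.6 and 16.0 FPKM in the WT mice and 9.30, 11.1, 10.98 and 10.9 in the 16p11.2+/- mice, and the genotypes overlapped. WT-1063 alone was high, and without it the log2 fold change was -0.03. With the thalamic neuron score as a covariate it was -0.30, with an unadjusted edgeR p under 0.05. Genes of the choroid plexus, an epithelium of the ventricles, were also highest in WT-1063, with a summed FPKM of 168 for 6 genes against 6.58 to 27.5 in the other 7 mice, and their part in the Npc2 value was not tested.

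Cyp46a1 (ENSMUSG00000021259, chromosome 12, 108334381 to 108362234), the neuronal enzyme that converts cholesterol to 24S-hydroxycholesterol, which leaves the brain, was highest in DF-1018 and lowest in DF-1062. It had 51.0, 46.3, 48.2 and 43.9 FPKM in the WT mice and 54.9, 45.6, 51.4 and 33.1 in the 16p11.2+/- mice. DF-1018, the lowest in most synthesis enzymes, was the highest of the 8 mice here, and DF-1062 was the lowest. The log2 fold change was -0.05 (standard error 0.17, 95% interval -0.43 to 0.33, edgeR adjusted p = 0.952). With the medium spiny neuron score as a covariate it was 0.14 and without DF-1062 it was 0.11.

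**Figure D3:**
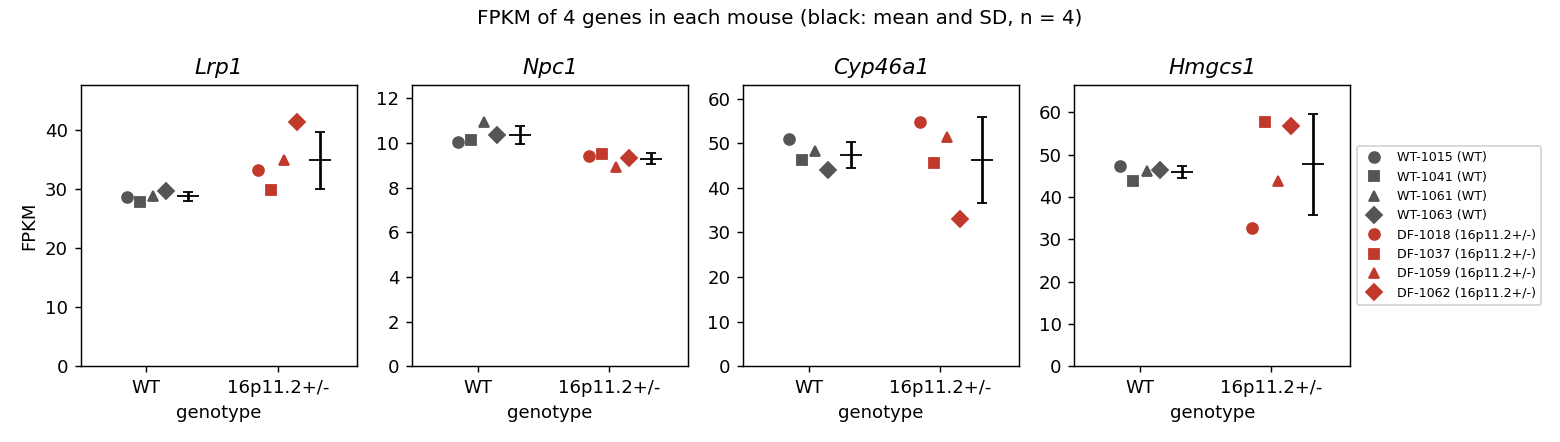
FPKM (vertical axis, from 0) of Lrp1, Npc1, Cyp46a1 and Hmgcs1 in each WT (grey) and 16p11.2+/- (red) mouse, with the mean and SD of the 4 mice in black. The genotypes are apart for Lrp1 and Npc1, and for Cyp46a1 and Hmgcs1 red points lie both above and below the grey ones, with DF-1018 highest for Cyp46a1 and lowest for Hmgcs1.

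Other genes of sterol handling, 21 in all, include the lipoprotein receptors Vldlr and Lrp8, the SREBP proteases Mbtps1 and Mbtps2, cholesterol esterification by Soat1 and the lysosomal lipase Lipa. Of the 20 that were tested 0 had an edgeR adjusted p under 0.05 (0.109% of all genes tested) and 1 had an unadjusted p under 0.05 (4.32%). This was Abcg4, a transporter related to Abcg1, with 7.52, 8.86, 9.02 and 10.04 FPKM in the WT mice and 9.46, 12.9, 8.97 and 16.1 in the 16p11.2+/- mice. The genotypes overlapped, and the log2 fold change was 0.39 (standard error 0.17, edgeR adjusted p = 0.859). Of 9 genes of fatty acid synthesis, which SREBP also controls, 0 had an unadjusted edgeR p under 0.05 (4.32% of all genes tested). Their log2 fold changes lay between -0.03 and 0.22. Ch25h, a cholesterol hydroxylase, was not tested in the fit because it had only 1 to 10 counts per mouse, with 0.0458 to 0.242 FPKM in WT and 0.273 to 0.486 in 16p11.2+/- mice.

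Several cell type markers also varied between the mice, and no correlation with the cholesterol genes was computed. In bulk tissue fewer cells of a type and less RNA per cell cannot be told apart. The 2 mice with the highest mean log2 CPM over the 19 synthesis enzymes, DF-1037 (4.91) and DF-1062 (4.96), were those with the lowest medium spiny neuron scores. DF-1018, with the lowest synthesis value (4.39), had a medium spiny neuron score of 8.75, inside the WT range of 8.06 to 8.83. The other 5 mice had synthesis values between 4.68 and 4.77. Thalamic neuron markers (6 genes) had scores of 6.29 and 6.36 in DF-1037 and DF-1062, 5.30 in DF-1018, 3.77 in DF-1059 and 6.62 in WT-1063, against 3.29 to 3.54 in the other WT mice. In the mice with a thalamic score above 5 the synthesis values were 4.39 (DF-1018), 4.77 (WT-1063), 4.91 (DF-1037) and 4.96 (DF-1062). Cortical neuron markers (6 genes) ranged from 2.45 to 5.84 in WT and from 1.96 in DF-1018 to 6.33 in DF-1037.

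The 10 oligodendrocyte markers were all lower on average in 16p11.2+/- mice (median log2 fold change -0.39), against 51.8% of all genes tested. Of these markers 6 had an unadjusted edgeR p under 0.05 (4.32% of all genes tested) but none an adjusted p under 0.05 (0.109%). Their summed FPKM was 1469 to 1690 in WT and 904 to 1291 in 16p11.2+/- mice. DF-1062 was the lowest in oligodendrocyte markers, with a score of 7.41 (7.82 to 8.02 in the other 16p11.2+/- mice). It had the highest mean log2 CPM over the synthesis enzymes. Astrocyte markers (8 genes) had summed FPKM of 454 to 511 in WT and 427 to 518 in 16p11.2+/- mice, microglia markers (6 genes) 87.7 to 120 and 74.3 to 109, and endothelial markers (5 genes) 53.9 to 62.0 and 48.1 to 70.6. In the medium spiny neuron, oligodendrocyte, astrocyte, microglia, endothelial, thalamic and cortical lists no marker was at 0 in any mouse, and in the choroid plexus list 1 marker was at 0 in at least 1 mouse. The summed FPKM of the 10 medium spiny neuron markers was 950 to 1603 in WT mice, 1494 in DF-1018, 1386 in DF-1059, 370 in DF-1037 and 296 in DF-1062. The oligodendrocyte score was 8.01 to 8.38 in WT and 7.41 to 8.02 in 16p11.2+/- mice. A fit with this score as a covariate therefore cannot separate it from genotype. Covariate fits aside, the part of these cell types in the levels of the cholesterol genes was not tested.

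**Figure D4:**
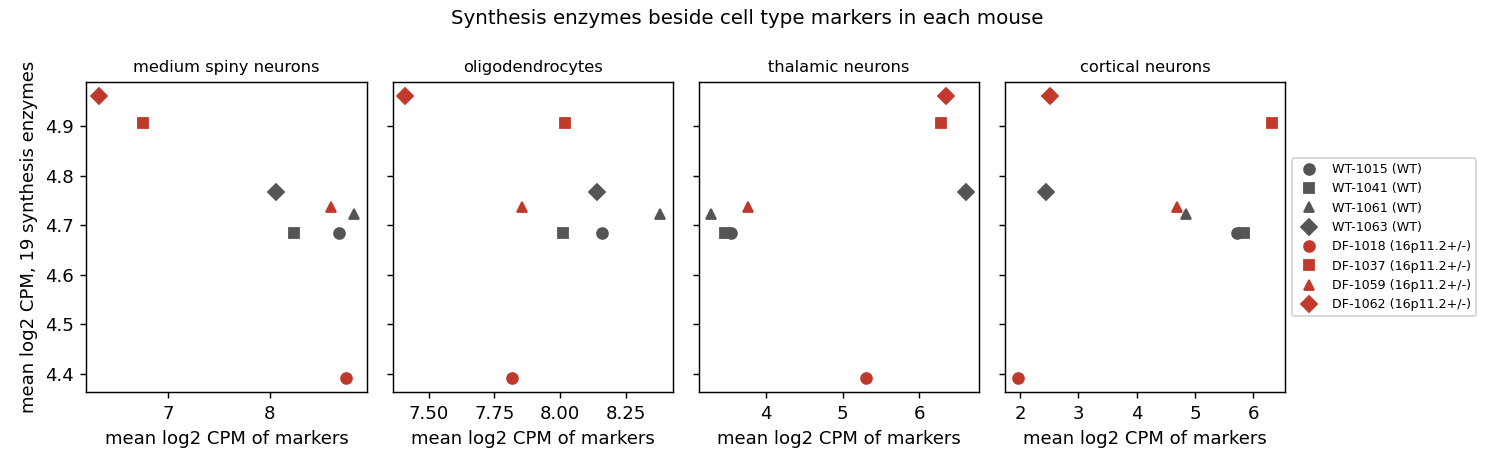
Mean log2 CPM of the 19 synthesis enzymes (vertical axis) against the mean log2 CPM of marker genes of 4 cell types (horizontal axes) in each WT (grey) and 16p11.2+/- (red) mouse. DF-1037 and DF-1062 lie at the upper left for medium spiny neurons, and DF-1018 lies lowest in each panel.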

How the data were processed

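Striatum RNA of 4 WT and 4 16p11.2+/- female mice was compared. Reads were mapped with Hisat2 2.1.0, and the authors deposited the raw count of each gene (Htseq-count) and the FPKM. The study's text gives no build, annotation or strand setting, and the submitters' processing notes name Bowtie 0.12.2, mm8 and mm9. GENCODE M21 exon lengths match, for 30 of the 33 genes, the lengths behind the FPKM deposited. The authors' own comparison (group means, fold changes, p-values) and a summary of FPKM were not used.

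The counts went into edgeR 4.0.16 (R 4.3.3) after TMM scaling and filterByExpr (minimum count 10, minimum total 15) for its quasi-likelihood test, and p-values were adjusted by Benjamini-Hochberg over 18294 genes. FPKM were compared by exact two-sided permutation tests (70 assignments), 1 for each of the 33 genes and not adjusted. Marker scores average the log2 CPM of a list (prior count 2). Shared stretches are 100-base runs of protein-coding transcripts found in other genes. FPKM in every mouse is given for genes with an unadjusted p under 0.05, no overlap, or the largest change or highest level of their group, and values of Insig1, Abca1, Abcg1 and Ch25h were added after they were seen. Scalings, filters, marker covariates, the omission of each mouse, limma 3.58.1 (voom, trend) and DESeq2 1.42.0 were tried as alternatives. The fits were also run on simulated counts with known changes. The 33 genes, the other pathway lists and the marker lists were all chosen with earlier results of these data known, although no measured value enters their definition. Each of the 33 genes had at least 12 counts in every mouse, and p-values measure the spread between mice.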

Additional observations from a re-analysis of the deposited data

Results flagged for a closer look

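In 82 groups of 4 mice (33 genes and 8 marker scores in each genotype) 4 values lay far from the other 3 of their group, with a ratio of the gap to the whole range above Dixon's 95% critical value, which chance exceeds in about 1 group of 20. These were Dhcr7 in WT-1063 (ratio 0.876, FPKM 4.605 against 3.92 to 4.01), Srebf1 in WT-1063 (ratio 0.908, FPKM 12.5 against 8.77 to 9.12), Npc2 in DF-1018 (ratio 0.881, FPKM 9.30 against 10.9 to 11.1) and the thalamic neuron score in WT-1063 (ratio 0.924, score 6.62 against 3.29 to 3.54).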

How the results depend on the processing

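With every alternative run, 0 of the 33 genes had an adjusted p under 0.05. The number with an unadjusted p under 0.05 (2 with edgeR and TMM) was 1 with no filter on low counts, 0 with the oligodendrocyte score as a covariate, and 1 with either the medium spiny neuron or the cortical neuron score, which were added after seeing the data. With the thalamic score the number was 2, with Npc2 in place of Lrp1, and without the 2 mice lowest in medium spiny neuron genes it was 2, with Sqle in place of Npc1. The number with a negative log2 fold change (17) was 26 with the medium spiny neuron score and 27 without the 2 mice lowest in these genes, also added after seeing the data. Leaving out each mouse in turn gave 0 to 4 genes with an unadjusted p under 0.05, 8 to 21 genes with a negative log2 fold change (8, and also the 4, which added Mvk and Sc5d, without DF-1018) and 2 to 5 genes with no overlap in FPKM (5 without DF-1018). The median log2 fold change of the synthesis enzymes then ranged from -0.03 to 0.15, and over the other alternatives from -0.15 to 0.06. The causes of these changes were not tested. Omitting a mouse can only keep or raise the number with no overlap. Shares of all genes tested were not computed for the alternatives, so their counts have no background to be read against.

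The signs of Lrp1, Npc1, Npc2 and Scap were the same in all 21 alternatives. With 1 mouse omitted the sign changed at least once for Hmgcs1 (-0.078 to 0.17), Fdft1 (-0.084 to 0.029), Sqle (-0.16 to 0.21), Srebf2 (-0.087 to 0.0028), Apoe (-0.073 to 0.089) and Cyp46a1 (-0.15 to 0.11). Other reversed values were -0.0026 for Hmgcs1 and -0.015 for Sqle with limma-voom, and for Apoe 0.0058 with library totals and 0.014 with both log2(FPKM + 1) and log2(FPKM + 0.1). With the thalamic score they were -0.050 for Hmgcs1, 0.045 for Fdft1, -0.11 for Sqle and 0.057 for Cyp46a1. With the oligodendrocyte score they were -0.24 for Sqle, -0.011 for Sc5d, -0.060 for Dhcr7 and 0.29 for Cyp46a1. With the medium spiny neuron score and, in brackets, without the 2 mice lowest in these genes they were -0.18 (-0.26) for Hmgcs1, -0.0087 (-0.063) for Pmvk, -0.29 (-0.37) for Sqle, -0.076 (-0.12) for Sc5d, -0.088 (-0.14) for Dhcr7 and 0.14 (0.17) for Cyp46a1. No paired analysis was possible because the genotypes share no replicate numbers. The median 95% interval of the 33 genes reached 0.31 log2 units to either side, with 4 mice per genotype.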
